A study of Homo sapiens with 2 samples.

Results

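Inside 2 MDA-MB-231 breast tumors, the core of an area that yielded few RNA molecules was compared with the ring of tissue around it. MDA-MB-231 is a human breast cancer cell line that lacks hormone receptors, and these cells carry a hypoxia fate-mapping reporter that marks a cell permanently once it has met low oxygen. Both tumors, Tumor-897 and Tumor-899, were untreated, were taken 18 days after implantation, and gave one frozen section of 10 µm each. Visium slides were used, whose barcoded spots each take up RNA from an area wide enough for several cells. The core and the ring come from the same sections, so they share genotype, reporter, treatment and age. The labels name no host animal, and the counts are of human features only, so host cells could not be set apart. Fluorescence images were not used here.

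The zones were chosen by unique molecular identifiers (UMIs, counted RNA molecules) per spot. Of 5382 spots over tissue, 5377 held at least 500 UMIs and were kept. The low area took spots whose smoothed UMIs (the mean of log10 UMIs over a spot and its neighbours) lay below 11473 in Tumor-897 and 5235 in Tumor-899. Its core, at least 3 array steps from any kept spot outside, held 302 spots in Tumor-897 and 612 in Tumor-899, 914 of 5377 in all. The ring, 1 or 2 steps outside the area, held 366 and 301 spots. The rest of the area is called the rim (266 and 245 spots), and tissue 3 or more steps outside is called distant (1602 and 1683 spots).

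The mitochondrial genome encodes 13 proteins of the respiratory chain and ATP synthase, and its genes are transcribed as long precursors from both strands and then cut apart. In a solid tumor, cells far from vessels meet low oxygen and switch on hypoxia genes through the HIF transcription factors. Mitochondrial transcripts sit behind their own membranes and are made and degraded by enzymes largely separate from those of nuclear transcripts. Their share of all molecules is a common measure of sample state in single-cell and spatial data.

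The low area was mostly one continuous patch in each section. It held 568 spots in 6 pieces in Tumor-897, of which the largest had 523 (92.1%), and 857 spots in 7 pieces in Tumor-899, of which the largest had 826 (96.4%). The core fell into pieces of 300 and 2 spots in Tumor-897 and of 603 and 9 spots in Tumor-899. The deepest core spot lay 7 steps inside the area in Tumor-897 and 13 steps inside in Tumor-899. The core rarely touched positions off tissue (0.662% and 1.31% of its spots, against 7.65% and 10.6% of ring spots). At the threshold, the last spots inside had 11447 and 5215 smoothed UMIs and the first outside 11475 and 5252, so the outline does not follow a gap in the values.

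**Figure D1:**
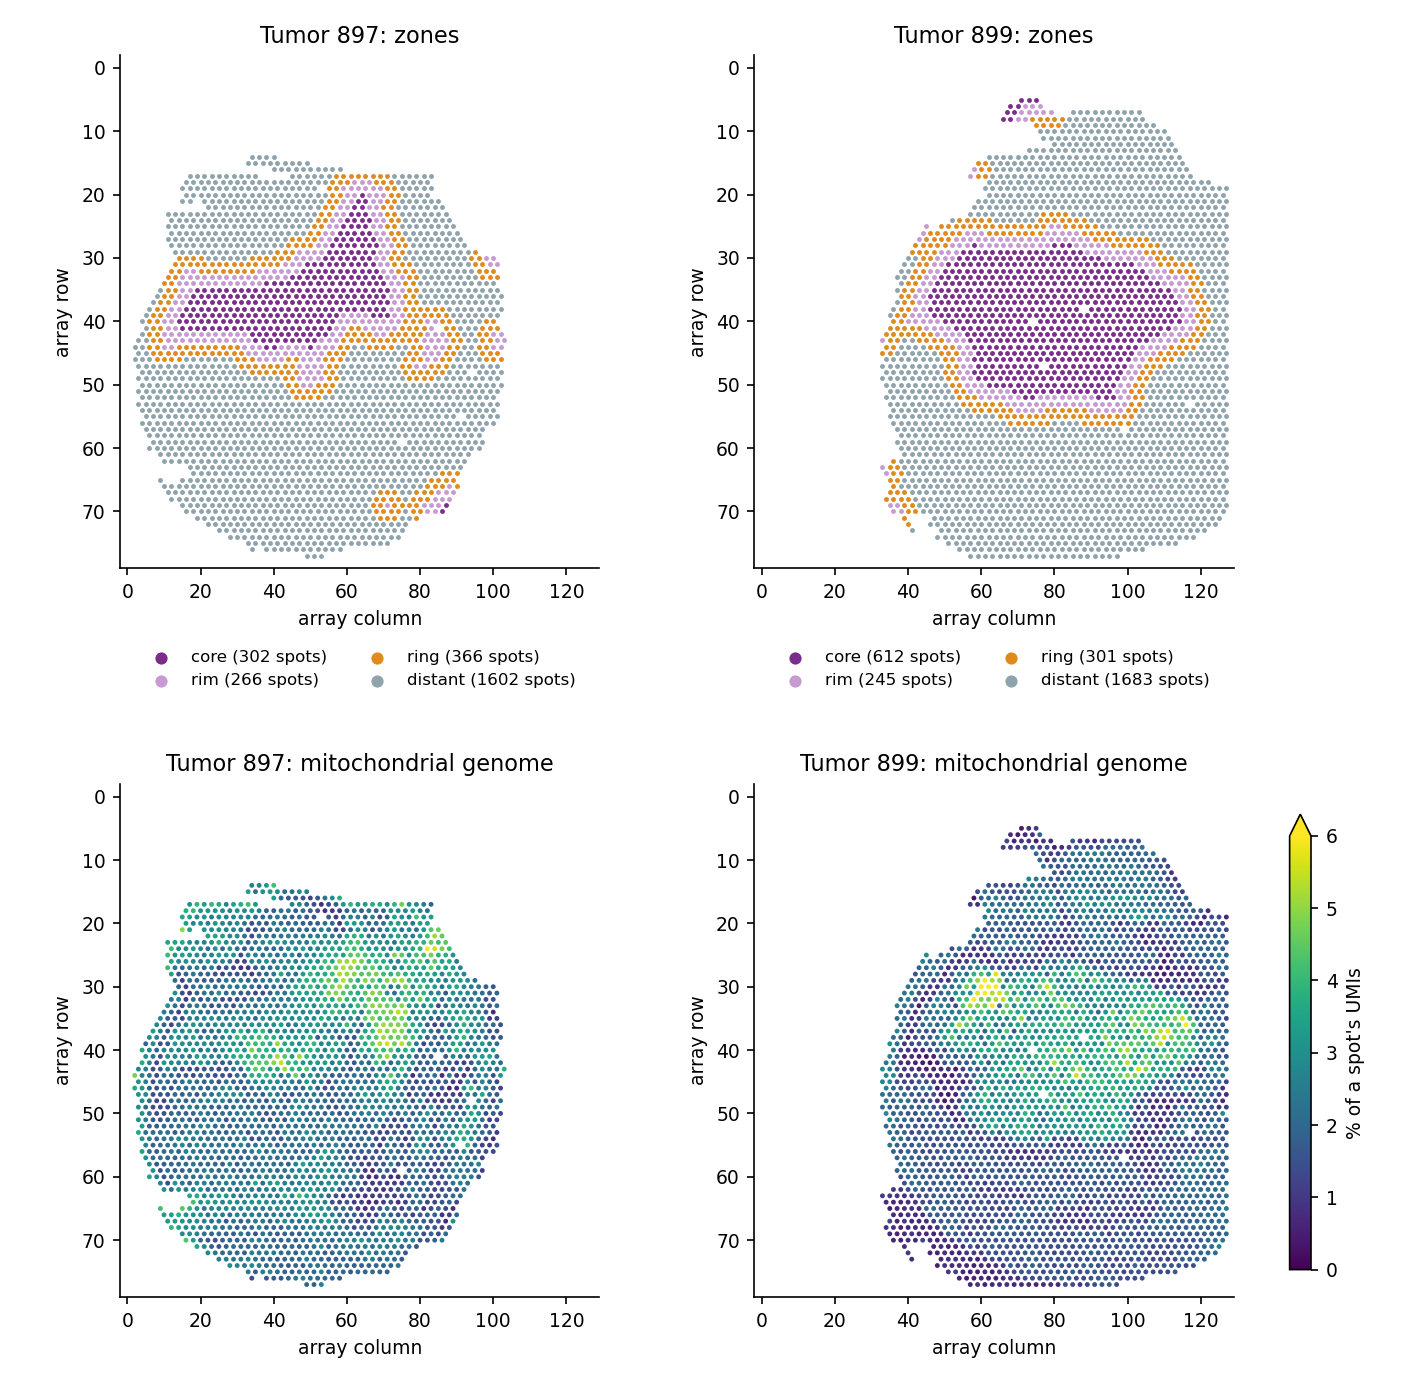
Maps of the kept spots of Tumor-897 and Tumor-899 by array row and column, coloured by zone (top) and by the percentage of a spot's UMIs from the mitochondrial genome (bottom). One large core lies inside each section, with 302 spots in Tumor-897 and 612 in Tumor-899, and 287 and 601 of these spots have a mitochondrial percentage above the ring's median.

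UMIs per spot chose the zones and are given as a description. Core spots in Tumor-897 ran between 1540 and 9710 UMIs with a median of 3471.5, and those in Tumor-899 between 502 and 3224 with a median of 1245. Ring spots in Tumor-897 ran between 718 and 52383 UMIs with a median of 19202, and those in Tumor-899 between 567 and 33327 with a median of 11459. The core sums came to 1154186 and 814771 UMIs, against ring sums of 7632358 and 3864255 UMIs. The core sums are thus shallower than the ring sums, and a spot with fewer cells cannot be told apart from one with less RNA per cell. Core spots showed a median of 1635 and 793.5 detected genes, against 4965.5 and 3712 in ring spots. Once every spot was thinned to 500 UMIs, the median was 378 and 387 genes per core spot and 380 and 383 per ring spot, values that lie within 4 genes of each other in each tumor.

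**Figure D2:**
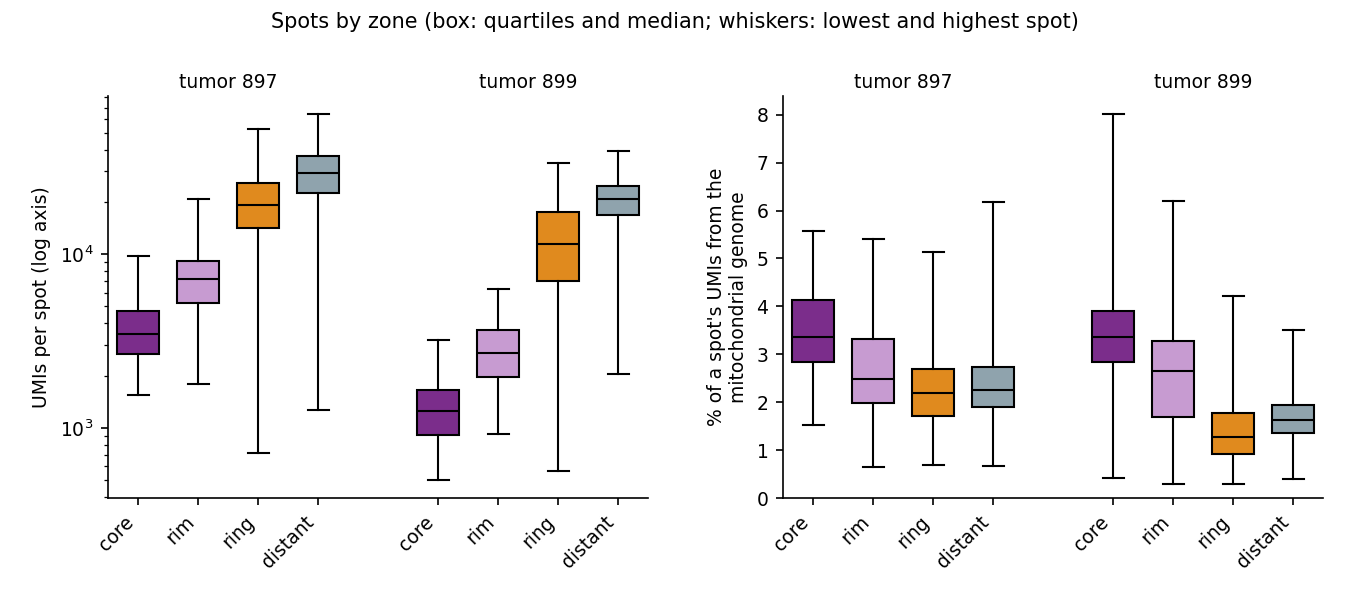
UMIs per spot on a log axis (left) and the percentage of a spot's UMIs from the mitochondrial genome (right), by zone and tumor, with boxes for the quartiles and median and whiskers to the lowest and highest spot. Median UMIs were 3471.5 and 1245 in the core and 19202 and 11459 in the ring, and median mitochondrial percentages were 3.36% and 3.37% in the core and 2.18% and 1.27% in the ring.

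Few genes were called as taking a different share of the RNA in the core than in the ring. UMIs were summed per tumor and zone and fitted over all genes with edgeR's quasi-likelihood test, with the tumor as a block (n = 2 tumors). A gene was called at a Benjamini-Hochberg adjusted p under 0.05. Of 11198 genes tested, 24 were higher in the core (0.214%) and 6 were lower (0.0536%), and 907 had an unadjusted p under 0.05. Scaling by library size alone gave 40 higher and 31 lower, and DESeq2's size factors 24 and 2. Without the tumor block, 13 of the 24 and 0 of the 6 were called, and DESeq2's own test also called 13 and 0 of them. Over all tested genes the median log2 fold change was 0.003, and 55.2% had the same sign in both tumors. All 30 called genes had the same sign in both tumors, a property that the call itself favours. One section per tumor was measured, so tumor and section cannot be told apart, and part of the spread may be technical. The fit had 1 residual degree of freedom against 15.57 of a prior shared over genes. Its p-values therefore rest mainly on that prior and less on a gene's own spread between the sections.

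Most genes higher in the core were mitochondrial or near-copies of a mitochondrial gene. All 13 protein-coding genes of the mitochondrial genome rose, as did all 5 tested members of the MTRNR2L family, which are nuclear near-copies of the mitochondrial 16S ribosomal RNA gene. The other 6 were RMRP, PLCG2, HIST1H4C and 3 features known only by a clone name. The share of UMIs from the mitochondrial genome was 3.60% in the core of Tumor-897 and 3.38% in that of Tumor-899. The ring had 2.27% and 1.40%, the rim 2.63% and 2.42%, and distant tissue 2.35% and 1.67%. Of core spots, 287 of 302 in Tumor-897 and 601 of 612 in Tumor-899 lay above the ring's median percentage.

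**Figure D3:**
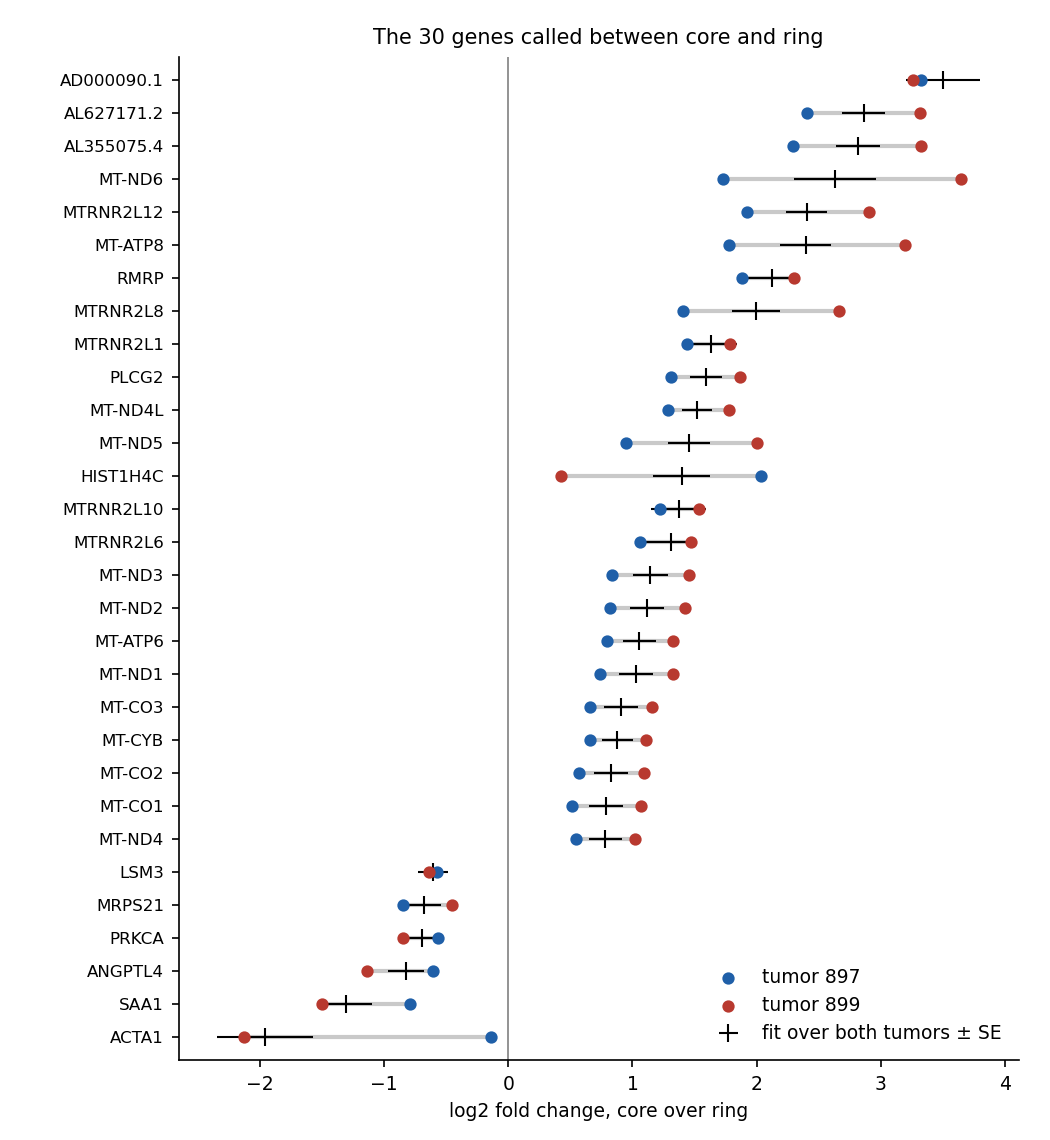
Log2 fold change, core over ring, of the 30 genes called with edgeR, with a blue point for Tumor-897, a red point for Tumor-899 and a black mark for the fit over both tumors ± SE. All 24 higher genes lie right of 0 in both tumors, and ACTA1 (-0.14 in Tumor-897, -2.13 in Tumor-899), MT-ND6 (1.73, 3.64) and HIST1H4C (2.04, 0.43) lie far apart between the tumors.

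Among the complex I genes, MT-ND6 changed most. MT-ND6 is the only protein-coding gene on the light strand, and it was sparse, with 36 and 60 UMIs in the core sums. It stood at 31.2 CPM (UMIs per 1000000 of the zone's sum) in the core of Tumor-897 and 73.6 in that of Tumor-899, against 9.04 and 5.18 CPM in the rings (log2 2.63 ± 0.33 SE, n = 2 tumors, edgeR adjusted p = 4.03e-04). MT-ND4L reached 629.9 and 619.8 CPM in the core, against 258 and 175 CPM in the ring (log2 1.52 ± 0.12 SE, edgeR adjusted p = 2.35e-06). MT-ND5 had 649 and 839.5 CPM in the core and 337 and 203 CPM in the ring (log2 1.46 ± 0.17 SE). Both core values lay above both ring values for each of these 3 genes. MT-ND3 (log2 1.14), MT-ND2 (1.12), MT-ND1 (1.03) and MT-ND4 (0.78) rose less. MT-ND4L and MT-ND4 overlap on one transcript, so their single values depend on how reads were assigned, which is not given in the sources used here.

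MT-ATP8 (ENSG00000228253), a small subunit of ATP synthase and one of 3 markers named for this area with earlier results known, had the next largest change in the mitochondrial genome. It stood at 285 CPM in the core of Tumor-897 and 400.1 CPM in that of Tumor-899, against 82.9 and 41.9 CPM in the rings (log2 2.39 ± 0.21 SE, n = 2 tumors, edgeR adjusted p = 4.20e-06). Its overlapping partner MT-ATP6 rose less, with 3172 and 3024 CPM in the core and 1834 and 1174 CPM in the ring (log2 1.06 ± 0.13 SE). The cytochrome oxidase genes MT-CO3, MT-CO2 and MT-CO1 had log2 values of 0.91, 0.83 and 0.79, and MT-CYB of complex III 0.88. For each of the 13 genes the change in Tumor-899 was larger than in Tumor-897, where it lay between 0.51 for MT-CO1 and 1.78 for MT-ATP8.

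The listed nuclear genes of the same machinery were not called, but only 0.214% of all tested genes were higher and 0.0536% lower. At those shares, lists of this size would hold few or no calls. Of 34 nuclear-encoded respiratory chain and ATP synthase genes tested, none was called against the ring, and their median log2 fold change was -0.11. Their summed level was 14940 CPM in the core of Tumor-897 and 13491 in that of Tumor-899, against 16513 and 15147 CPM in the rings. None of 22 genes for mitochondrial RNA processing and the mitochondrial ribosome was called (median 0.004). MRPS21, a protein of the small mitochondrial ribosomal subunit that is not among those 22, was lower in the core, at 97.0 and 102 CPM against 175 and 135 CPM in the ring (log2 -0.68 ± 0.14 SE, edgeR adjusted p = 0.0497). That call was lost with DESeq2's size factors, scaling on the nuclear genome, DESeq2's test, no tumor block or a ring thinned to the core's UMIs. The difference between the mitochondrial and the nuclear sets was not tested.

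The MTRNR2L genes lie on several chromosomes and resemble the mitochondrial 16S rRNA so closely that reads can be split between the copies and the rRNA, so each single value is uncertain. Of 11 members in the files, 5 had enough UMIs to be tested, and all 5 rose. MTRNR2L12 (ENSG00000269028, chromosome 3, 96617186 to 96618223 in GRCh38.p14) had 1031 CPM in the core of Tumor-897 and 1515 CPM in that of Tumor-899, against 271 and 196 CPM in the rings (log2 2.40 ± 0.17 SE, n = 2 tumors, edgeR adjusted p = 3.71e-07). MTRNR2L8 on chromosome 11 had 263 and 430.8 CPM in the core and 98.8 and 65.5 CPM in the ring (log2 1.99 ± 0.19 SE). MTRNR2L1, MTRNR2L10 and MTRNR2L6 had log2 values of 1.63, 1.37 and 1.31. For MTRNR2L12 and MTRNR2L8, both core values lay above both ring values. MTRNR2L6 stood at 0.34 and was not called when the hypoxic spots of the ring, defined later by a score, were left out. The 6 members not tested had at most 7 UMIs in any core sum.

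RMRP is the RNA part of RNase MRP, an enzyme that cuts precursor ribosomal RNA, and is made by RNA polymerase III. The gene lies on chromosome 9 (ENSG00000269900, 35657750 to 35658019 in GRCh38.p14). It had 46.8 CPM (54 UMIs) in the core of Tumor-897 and 81.0 CPM (66 UMIs) in that of Tumor-899, against 12.3 CPM (94 UMIs) and 15.5 CPM (60 UMIs) in the rings (log2 2.12 ± 0.20 SE, edgeR adjusted p = 1.48e-05). Both core values lay above both ring values. TERC, the telomerase RNA and the other of the 16 small structured RNAs listed that the files hold, had 10 and 4 UMIs in the core sums. Its log2 value was 0.86 against the ring, where it was not called, and 2.02 against distant tissue, where it was called.

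PLCG2, phospholipase C gamma 2, a signalling enzyme known mainly from blood cells (ENSG00000197943, chromosome 16, 81739041 to 81962685 in GRCh38.p14), was also higher. It had 836 CPM in the core of Tumor-897 and 1619 CPM in that of Tumor-899, against 337 and 431 CPM in the rings (log2 1.59 ± 0.13 SE, edgeR adjusted p = 2.35e-06). The core of each tumor lay above both rings, with the higher value in Tumor-899. Macrophage and granulocyte markers, from blood cells, summed to 211 and 218 CPM in the core and 227 and 234 CPM in the ring. Of these markers 0 of 3 tested were called, where 0.214% of all tested genes were higher and 0.0536% lower. At those shares 3 genes would hold no calls. Human-aligned counts catch such cells only in part if the host is another species. Of the 15 markers, 5 and 8 were at 0 UMIs in the core sums and 4 and 3 in the ring sums, and their part in the PLCG2 result was not tested.

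HIST1H4C (ENSG00000197061, chromosome 6, 26103933 to 26104337 in GRCh38.p14) encodes histone H4, and messages of this class normally end in a stem-loop in place of a poly(A) tail. It stood at 431 CPM in the core of Tumor-897 and 158 CPM in that of Tumor-899, against 105 and 114 CPM in the rings (log2 1.40 ± 0.23 SE, edgeR adjusted p = 0.00655). The rise rested mainly on Tumor-897 (log2 2.04, against 0.43 in Tumor-899). None of the other 16 histone genes tested was called, where 0.214% of all tested genes were higher and 0.0536% lower. The list's median was -0.04.

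The 3 clone-named features were singled out after their values were seen, and the tables at hand pair them with no gene. AL627171.2 (ENSG00000282885) had 2057 CPM in the core of Tumor-897 and 5264 CPM in that of Tumor-899, against 389 and 513 CPM in the rings (log2 2.86 ± 0.17 SE, edgeR adjusted p = 9.30e-08). AL355075.4 (ENSG00000259001) had 131 and 304 CPM in the core and 26.3 and 29.0 CPM in the ring (log2 2.82 ± 0.18 SE). AD000090.1 (ENSG00000283907) had 53 and 23 UMIs in the core sums and 31 and 9 in the larger ring sums (log2 3.50 ± 0.30 SE).

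For most of these genes a higher share did not mean more molecules per spot. The ratio of UMIs per spot, core over ring, had a median of 0.183 in Tumor-897 and 0.106 in Tumor-899 over the 11198 tested genes, beside 0.183 and 0.104 for all UMIs together. Over the 24 higher genes it ran between 0.261 and 2.07 in Tumor-897 and between 0.144 and 1.48 in Tumor-899, and it reached 1 for 1 of them in Tumor-897 and 4 in Tumor-899. MT-ATP8 had 1.09 UMIs per core spot against 1.73 per ring spot in Tumor-897, and 0.533 against 0.538 in Tumor-899. AL627171.2 had 7.86 and 7.01 UMIs per core spot, against 8.12 and 6.59 per ring spot. MT-CO1, at the other end, had 19.9 and 6.43 UMIs per core spot, against 76.2 and 28.7 per ring spot. These ratios describe spots and were not tested.

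Profiles across the outline differed in shape between the tumors. In Tumor-897 the 3 markers of the area changed over several steps, and in Tumor-899 MTRNR2L12 and MT-ATP8 changed mostly between rim and ring. In Tumor-897, MTRNR2L12 stood at 1680 CPM at 7 steps inside (20 spots), 1087 at 5 to 6, 951 at 3 to 4 and 568 at 1 to 2 steps inside, then at 271 CPM 1 to 2 steps outside and at 148 CPM 9 or more steps outside. In Tumor-899 it was flat over the deep core, at 1436 CPM at 9 to 13 steps, 1528 at 7 to 8, 1695 at 5 to 6 and 1439 at 3 to 4, with 1012 in the rim and 196 in the ring. MT-ATP8 in Tumor-897 had 398 CPM at 7 steps inside, 311 at 5 to 6, 263 at 3 to 4 and 151 at 1 to 2 steps inside, then 82.9 CPM in the ring. In Tumor-899 its highest bin, 440.3 CPM, lay 5 to 6 steps inside, with 241 CPM in the rim and 41.9 CPM in the ring. RMRP had 86.3 CPM at 9 to 13 steps inside in Tumor-899, 95.5 at 7 to 8, 108 at 5 to 6, 56.1 at 3 to 4 and 31.6 in the rim, and 15.5 CPM in the ring. In Tumor-897 RMRP peaked at 64.9 CPM at 5 to 6 steps inside. PLCG2 reached 2307 CPM at 7 to 8 steps inside in Tumor-899 and 1108 CPM at 7 steps in Tumor-897. The summed mitochondrial genome was nearly level over the core, at 34284 to 36461 CPM in Tumor-897 and 31562 to 35762 CPM in Tumor-899, against 26326 and 24170 CPM in the rim.

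**Figure D4:**
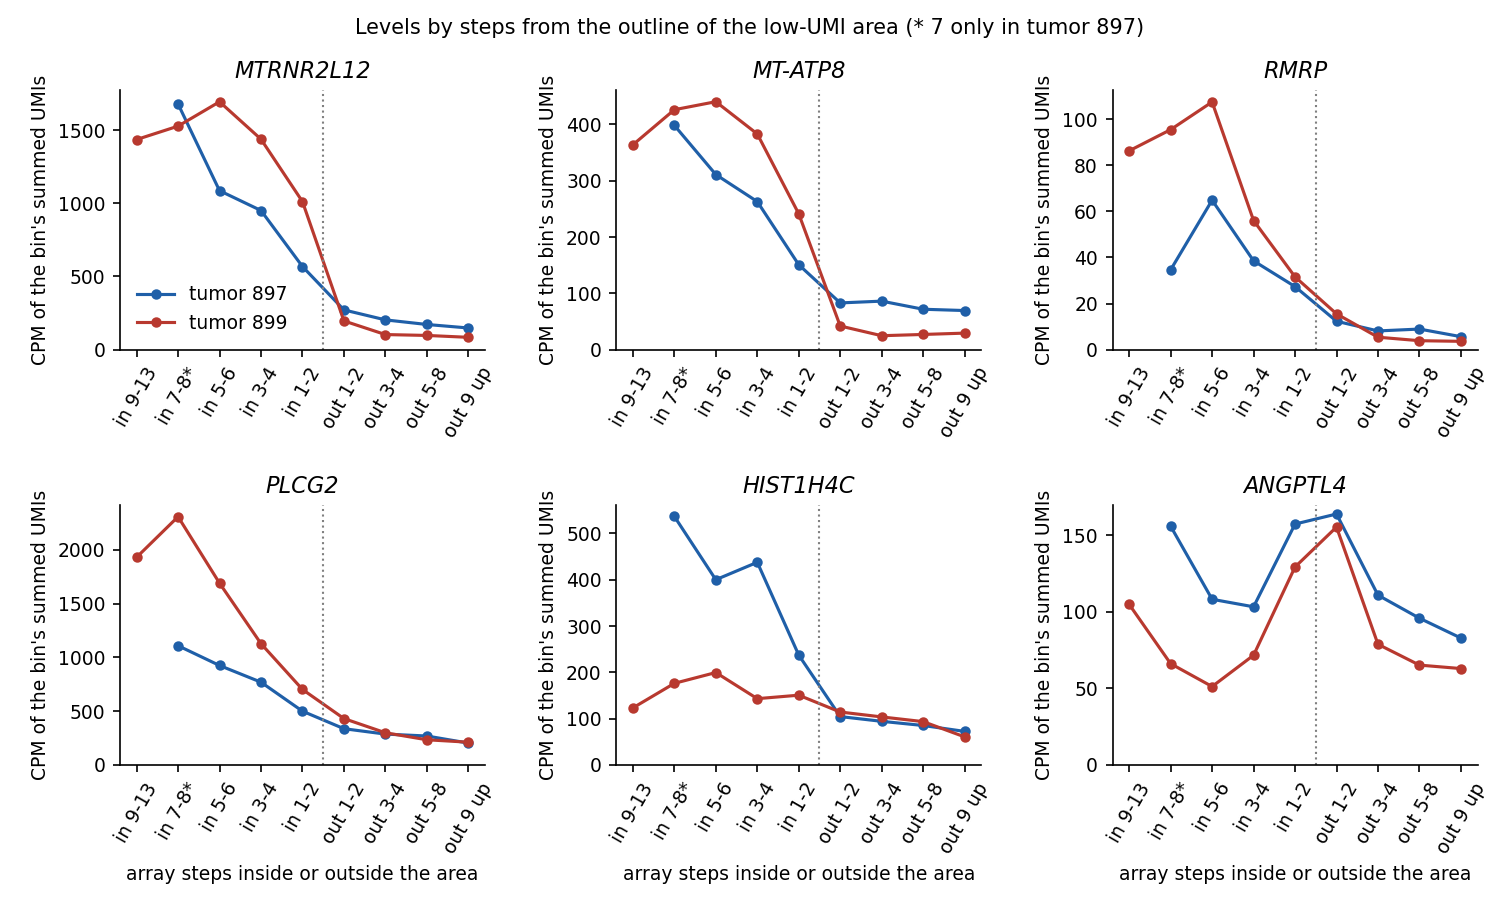
CPM of 6 called genes by array steps inside (in) or outside (out) the low area, for Tumor-897 in blue and Tumor-899 in red, with the area's outline as a dotted line. MTRNR2L12, MT-ATP8, RMRP and PLCG2 are higher inside than outside in both tumors, HIST1H4C mainly in Tumor-897 (431 CPM in the core against 105 in the ring), and ANGPTL4 has its highest value of the plotted bins in the ring of both.

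The smaller pieces of the low area did not share the whole pattern, an observation made after the data were seen. They held 45 spots in Tumor-897 and 31 in Tumor-899, of which 35.6% and 77.4% adjoined positions off tissue, against 0% in both largest pieces. Mitochondrial genes took 1.79% and 1.11% of their UMIs, against 3.14% and 3.07% in the largest pieces. Of the smaller pieces' spots, 2 of 45 and 9 of 31 were core, against 300 of 523 and 603 of 826 in the largest. Median UMIs were higher in the smaller pieces (6870 and 3620, against 4622 and 1435). Piece, depth and place inside the area were thus not separated. MTRNR2L12 had 477 CPM (168 UMIs) and 180.0 CPM (19 UMIs) in the smaller pieces, against 769.6 and 1366 CPM in the largest. PLCG2 went the other way, at 681 and 1459 CPM in the smaller pieces and 615 and 1177 CPM in the largest. Outside the area, 30 spots in Tumor-897 and 7 in Tumor-899 had no more UMIs than the richest core spot, and their median mitochondrial percentage was 2.36% and 1.86%, against 3.36% and 3.37% in core spots. Their UMIs were more than those of most core spots (median 8684 and 2030), so depth was not matched. MTRNR2L12 in these outside spots had 628 CPM (148 UMIs) in Tumor-897, between the core's 1031 and the ring's 271 CPM, and 80.8 CPM (1 UMI) in Tumor-899. MT-ATP8 had 127 CPM (30 UMIs) there in Tumor-897, against 285 CPM in the core and 82.9 CPM in the ring, and 1 UMI in Tumor-899. RMRP had 3 and 0 UMIs in these spots. In Tumor-897 the shallow spots outside the area thus had part of the rise of MTRNR2L12 and MT-ATP8. In Tumor-899 the 7 spots did not show the rise of MTRNR2L12, at 80.8 CPM against 1515 CPM in the core and 196 CPM in the ring. Their MTRNR2L12 value rests on 1 UMI, and 1 UMI of MT-ATP8 is too few to place that gene. With only the largest piece of the area, all 24 higher genes were called again, among 45 called higher and 64 called lower. That piece held 300 of the 302 core spots in Tumor-897 and 603 of the 612 in Tumor-899, so the repeat was nearly fixed in advance. The prior degrees of freedom of that fit were also infinite, against 15.57 in the main fit.

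The 6 genes lower in the core form no single group. SAA1, an acute-phase protein (ENSG00000173432, chromosome 11, 18266264 to 18269967 in GRCh38.p14), had 13 CPM (15 UMIs) in the core of Tumor-897 and 40.5 CPM (33 UMIs) in that of Tumor-899, against 22.9 and 113 CPM in the rings (log2 -1.31 ± 0.21 SE, edgeR adjusted p = 0.00578). ANGPTL4, a secreted lipase inhibitor induced by hypoxia, had 107 and 72.4 CPM in the core and 164 and 155 CPM in the ring (log2 -0.82 ± 0.14 SE, edgeR adjusted p = 0.0123). The kinase gene PRKCA (log2 -0.69), MRPS21 (-0.68) and LSM3 (-0.60), part of the complex that binds U6 small nuclear RNA, were lower by less. ACTA1, skeletal muscle actin, was chosen after its values were seen (log2 -1.96 ± 0.39 SE, edgeR adjusted p = 0.0402). It had 2 and 10 UMIs in the core sums against 15 and 209 in the larger ring sums. As shares, these were 1.73 and 12.3 CPM in the core and 1.97 and 54.1 CPM in the ring. The fall thus lay in Tumor-899 (log2 -2.13, against -0.14 in Tumor-897). Without ring spots in the top quartile of the hypoxia score described next, ANGPTL4 stood at 0.35 and SAA1 at -0.49, neither called. ANGPTL4 belongs to the list behind that score, so its move upward was built into the choice of spots.

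By summed counts, hypoxia genes took a lower share in the core than in the ring and a higher share than in distant tissue, while a score of single spots put the core lowest. The score per spot (the mean over the hypoxia genes of z-scored log2 UMIs per 10000, smoothed over neighbours) put 4.64% of core spots of Tumor-897 and 0% of those of Tumor-899 in its top quartile, against 55.2% and 72.8% of ring spots and 19.0% and 24.8% of distant spots. The score averages log values of single spots, the core was chosen for low UMIs, and the score was not corrected for depth, so it gives no order between the core and the other zones. The 28 genes summed to 4025 CPM in the core of Tumor-897 and 3606 CPM in that of Tumor-899, against 4587 and 5381 CPM in the rings, and 2625 and 2360 CPM in distant tissue. By these sums the core lay between the ring and distant tissue in both tumors, and above distant tissue where the score had put it below. Of 27 hypoxia genes tested against the ring, 1 fell (ANGPTL4) and none rose, with a median log2 fold change of -0.26. Of all genes tested there, 0.214% were higher and 0.0536% lower, so a list of this size would hold few or no calls. NDRG1, a hypoxia-induced stress gene chosen after its values were seen, had 866 and 725 CPM in the core and 1085 and 1411 CPM in the ring, and was not called (log2 -0.65, edgeR adjusted p = 0.0745). Without the ring spots of the top quartile the list's median was 0.48. Those spots were chosen by a score of these same genes and only the ring was filtered. A rise was therefore fixed in advance and says nothing about the core.

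Against distant tissue, which shares the core sums with the comparison above, hypoxia genes were higher in the core. Of 15005 genes tested there, 222 were higher (1.48%) and 177 lower (1.18%), and scaling by library size alone gave 179 and 274. The prior degrees of freedom of that fit were infinite, so a gene's own spread between the tumors did not enter its p-value. Of 28 hypoxia genes, 16 rose and none fell (median log2 0.69). EGLN3, an oxygen-sensing prolyl hydroxylase, had 59.8 and 41.7 CPM in the core and 21.4 and 13.7 CPM in distant tissue (log2 1.57 ± 0.19 SE, edgeR adjusted p = 3.50e-13). The vasodilator peptide gene ADM had 178 and 117 CPM in the core and 78.3 and 55.9 CPM in distant tissue (log2 1.18 ± 0.13 SE). Core values lay above distant values in both tumors for both genes. By steps, the summed level peaked at the outline, at 4950 CPM in the rim of Tumor-897 and 5381 CPM in the ring of Tumor-899.

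The genes higher than in the ring were also measured against distant tissue. MTRNR2L12 had 168 and 91.5 CPM in distant tissue (log2 3.37 ± 0.10 SE, core over distant), RMRP 7.31 and 3.99 CPM (log2 3.51 ± 0.24 SE), MT-ATP8 73.6 and 27.7 CPM (log2 2.90 ± 0.12 SE) and PLCG2 244 and 234 CPM (log2 2.33 ± 0.10 SE). For MT-CO1 the log2 value was 0.67 against distant tissue and 0.79 against the ring. SAA1 (log2 0.57) and ANGPTL4 (0.22) were not called against distant tissue.

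**Figure D5:**
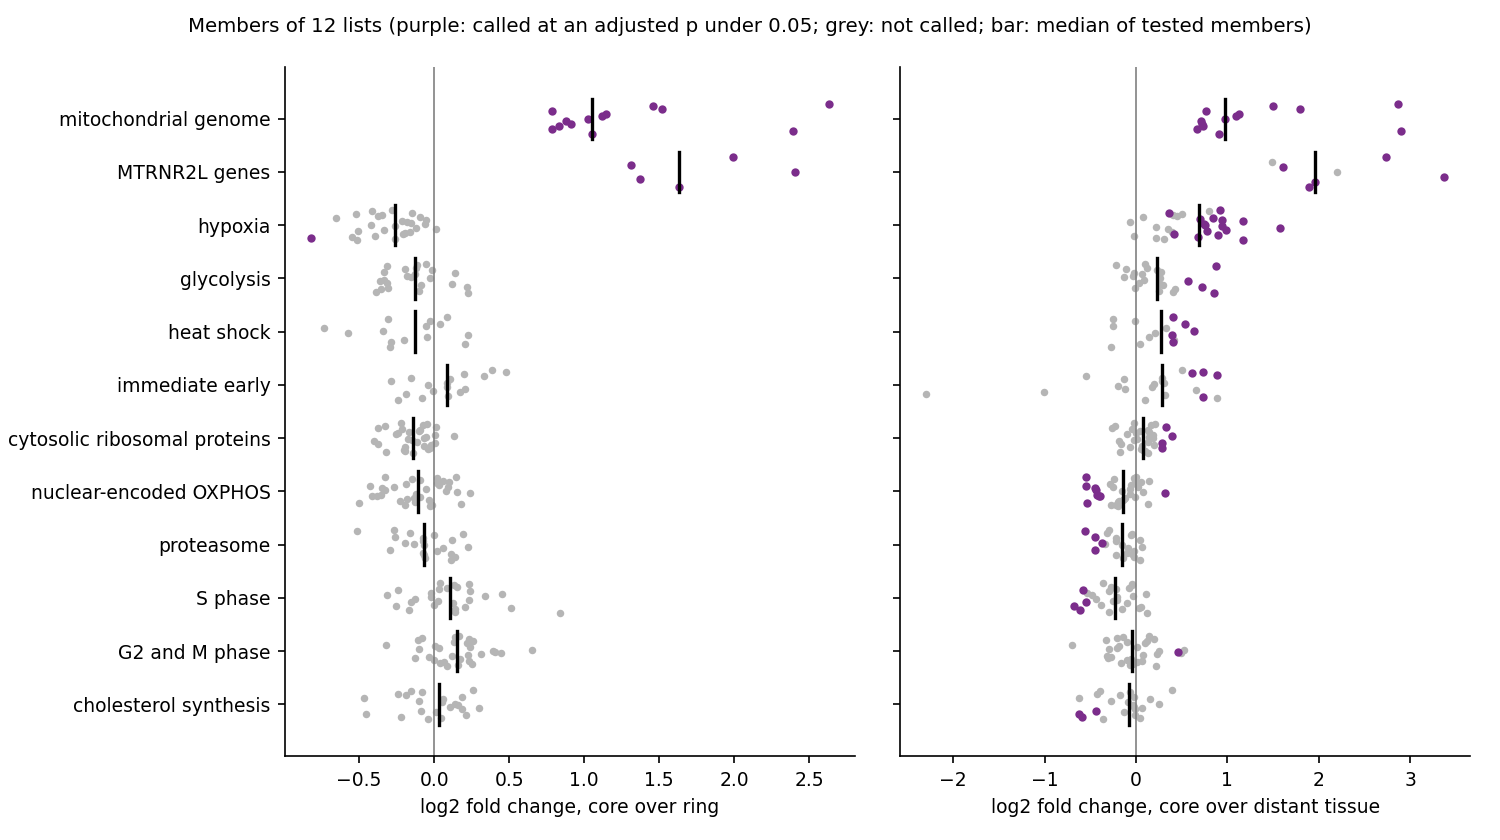
Log2 fold change of each tested member of 12 gene lists, core over ring (left) and core over distant tissue (right), with called members in purple, others in grey and the list's median as a black bar. The 13 mitochondrial genome genes and 5 MTRNR2L genes are called against the ring, and 16 of 28 hypoxia genes are called as higher in the right panel, against 0 in the left. Of all tested genes, 1.48% were called higher against distant tissue and 0.214% against the ring.

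No member of the cell stress and growth lists was called against the ring, where 0.214% of all tested genes were higher and 0.0536% lower. At those shares, lists of this size would hold few or no calls. None of 23 glycolysis genes, 14 heat shock genes, 24 stress-response genes, 17 immediate early genes, 22 proteasome genes, 26 S phase genes, 30 G2 and M phase genes or 22 cholesterol synthesis genes was called, and their medians lay between -0.13 and 0.15. Against distant tissue, where 1.48% of all tested genes were higher and 1.18% lower, 4 of 26 S phase genes were lower (FEN1, a flap endonuclease of DNA replication, log2 -0.68, and the origin licensing gene CDC6, -0.62). There, 5 of 14 heat shock genes were higher (HSPA1B, log2 0.63, and HSPB1, 0.53), 4 of 22 proteasome genes were lower (PSMD4, log2 -0.56), and 8 of 34 nuclear respiratory genes were lower with 1 higher (UQCRQ, log2 -0.54, and NDUFS5, -0.54). HSPA1B has a near-identical copy that can take its reads. Nor was any of 20 NF-kB and inflammatory, 26 interferon, 14 MHC class I, 21 oxidative stress, 21 apoptosis, 20 lysosome, 23 mesenchymal or 20 actin cytoskeleton genes called against the ring.

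No cytosolic ribosomal protein gene was called against the ring, where only 0.214% of all tested genes were higher and 0.0536% lower. Together they took 9.36% and 8.70% of UMIs in the core and 9.77% and 9.79% in the ring, with 0 of 31 called and a median log2 of -0.14 (-0.02 in Tumor-897 and -0.22 in Tumor-899). In Tumor-899 their summed level was highest in the rim, at 102830 CPM, and fell on both sides of it. Inward it was 93679 at 3 to 4 steps, 87180.5 at 5 to 6, 82293 at 7 to 8 and 77479 at 9 to 13 steps inside. Outward it was 97942 CPM in the ring and 83421 CPM 9 or more steps outside. Against distant tissue 4 of 31 were called higher and 0 lower, where 1.48% of all tested genes were higher and 1.18% lower. In Tumor-897 it lay between 92726 and 96966 CPM over the core, with no such order. Of 22 translation factors none was called against the ring. PABPC1, the poly(A)-binding protein, had a log2 value of 0.58 against the ring (edgeR adjusted p = 0.0522) and 0.96 against distant tissue. MALAT1, a nuclear long noncoding RNA, stood at 0.34 against the ring (edgeR adjusted p = 0.444) and 1.07 against distant tissue. None of 20 long noncoding RNAs listed was called against the ring and 3 were higher against distant tissue.

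Line and other-cell markers were compared by their summed levels. Markers of MDA-MB-231 cells summed to 18566 and 15523 CPM in the core and 17829 and 16674 CPM in the ring. Of these 0 of 8 were called, where 0.214% of all tested genes were higher and 0.0536% lower. The genes ESR1 and PGR, whose hormone receptors this line lacks, had 0 UMIs in the core and the ring of both tumors. In the larger sums of distant tissue neither gene was at 0 in either tumor. Fibroblast markers, which human-aligned counts catch only in part if the host is another species, summed to 796 and 1976 CPM in the core and 1052 and 1449 CPM in the ring, a higher value in the core of Tumor-899 alone. Of 14 fibroblast markers, 2 and 2 were at 0 in the core sums and 0 and 1 in the ring sums. Skeletal muscle markers summed to 11.3 and 77.3 CPM in the core and 14.2 and 229.8 CPM in the ring, and of 12 markers 8 and 2 were at 0 in the core sums and 2 and 0 in the ring sums. ACTA1 belongs to that list, and the part of muscle in its value was not tested. Endothelial markers summed to 133 and 136 CPM in the core and 136 and 138 CPM in the ring. Red blood cell markers summed to 46.8 and 45.4 CPM in the core and 100.2 and 41.9 CPM in the ring. Without spots rich in markers of other cells, all 24 higher genes were called, and ACTA1 and SAA1 were not. That filter left 290 of the 302 core spots in Tumor-897 and 583 of the 612 in Tumor-899. Its fit had infinite prior degrees of freedom, against 15.57 in the main fit. The repeat of the 24 calls therefore says little about other cells.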

How the data were processed

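RNA of 2 tumor sections (Tumor-897 and Tumor-899) was captured on Visium slides, and the authors deposited UMI counts for 36601 human features per barcoded spot, with each spot's place among 4992 array positions. Per the file headers the counting tool was Space Ranger 1.3.0, and the genome was hg38 per the submitters' processing notes. Aligner settings, strand and the handling of reads that match several genes are not given in the sources used here. The sections list 2536 and 2846 spots over tissue, with 58661164 and 39735490 UMIs in kept spots, and 1627 barcodes occur in both since slides share one array design.

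The UMI thresholds of the low area were recomputed by Otsu's method (256 bins) on smoothed log10 UMIs. Raw counts were summed per tumor and zone and tested with edgeR 4.0.16 (quasi-likelihood F test, TMM scaling, filterByExpr) in R 4.3.3, with the tumor as a block, since core and ring of a tumor lie in one section. The edgeR fits had 1 residual degree of freedom (2 without the block, 3 with 4 zones in one fit), so the spread rests largely on the prior shared over genes. Levels are given as CPM of unscaled sums. The zones were drawn on UMIs, which are also the denominator of CPM. No doublet caller was run.

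DESeq2 1.42.0, other scalings, filters, zone widths and thresholds were tried as alternatives. Named genes were the 15 highest and the 15 lowest called genes with a mean of at least 20 CPM and the same sign in both tumors, without clone-named features, then the 3 markers of the area, then the 2 most changed called members of each list. Members, lists (26 of genes, 10 of markers) and rule were chosen with earlier results of these data known. Positions come from RefSeq's GRCh38.p14 table, which placed 52 of 68 named genes. Leaving out a tumor leaves no residual degrees of freedom, so only the other tumor's value is given.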

Additional observations from a re-analysis of the deposited data

How the results depend on the processing

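Against the ring, 24 genes were higher and 6 lower, and both counts moved with the settings, the lower one more. Higher and lower counts were 40 and 31 with library size alone, 24 and 2 with DESeq2's size factors, 24 and 3 with scaling on the nuclear genome, 14 and 2 with DESeq2's Wald test, 34 and 57 without filterByExpr, 36 and 42 with 4 zones in one fit, and 34 and 24 with spots of at least 1000 UMIs. With other zones they were 60 and 53 (core from 2 steps), 34 and 32 (core from 4 steps), 30 and 50 (ring of 1 step), 62 and 63 (ring of 1 to 4 steps), 51 and 28 (ring without the top hypoxia quartile), 42 and 47 (without spots beside positions off tissue), 45 and 47 (without spots rich in markers of other cells), 30 and 29 (ring thinned to the core total), 32 and 39 (area threshold times 0.8) and 63 and 58 (the higher threshold tried). The largest piece alone, chosen after seeing the data, gave 45 and 64. In the unpaired fit, without the replicate block, 13 were higher and 0 lower with edgeR, although all 24 and 4 of the 6 kept an unadjusted p under 0.05. The 24 higher genes were all called again in 16 of 19 settings. The exceptions were the fit without the block (13 called), DESeq2 (13 called, 7 of the others with no adjusted p) and the ring without its hypoxic spots (23, MTRNR2L6 lost at log2 0.34). Of the 6 lower genes, DESeq2 called 0, with 5 given no adjusted p and all 6 at an unadjusted p under 0.05. ANGPTL4 turned to 0.35 without the ring's hypoxic spots (edgeR adjusted p = 0.503), which a score of its own list had chosen. Against distant tissue, 222 higher and 177 lower became 86 and 50 with DESeq2, 13 and 0 without the replicate block in edgeR (201 and 154 at an unadjusted p under 0.05), and 179 and 274 with library size alone. Taking one tumor at a time gave SAA1 -0.79 in Tumor-897 and -1.50 in Tumor-899. With core sums of 1154186 and 814771 UMIs, genes of a few CPM rest on few molecules there. The prior degrees of freedom also differed between the edgeR fits against the ring, at 15.57 in the main fit and infinite in most fits with other zones. The counts thus come from fits with unlike estimates of the spread. The cause of these shifts was not tested.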

Other observations

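Several further genes differed between the core and distant tissue, in a comparison that shares the core sums with that against the ring. KLF4, a transcription factor of the immediate early group, had 68.5 and 73.6 CPM in the core and 36.7 and 42.8 CPM in distant tissue (log2 0.89 ± 0.16 SE, n = 2 tumors, edgeR adjusted p = 6.84e-06), and 4 of 20 immediate early genes were higher, where 1.48% of all tested genes were higher and 1.18% lower. MT1X, a metal-binding metallothionein, had 899.3 and 508 CPM in the core and 539.6 and 314 CPM in distant tissue (log2 0.76 ± 0.10 SE). The collagenase gene MMP1 had 97.9 and 118 CPM in the core and 51.6 and 68.5 CPM in distant tissue (log2 0.90 ± 0.14 SE). The chemokine gene CXCL8 was the only one of 24 NF-kB and inflammatory genes called there (log2 0.85 ± 0.18 SE). IFI27 and IFI44, both induced by interferon, were lower in the core (log2 -0.55 and -0.68), and the other 24 of 26 interferon genes were not called. None of these genes was called against the ring.

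The small core pieces, of 2 spots in Tumor-897 and 9 in Tumor-899, were looked at after the data were seen. The piece in Tumor-899 held 19750 UMIs, of which 0.820% were mitochondrial, against 3.44% in the largest core piece of that tumor. MT-ATP8 had 0 UMIs and MTRNR2L12 had 2 UMIs in that small piece. PLCG2 stood at 2177 CPM there (43 UMIs), against 1605 CPM in the largest core piece. Positions off tissue adjoined 88.9% of the small piece's spots. Its spots held a median of 2129 UMIs, against 1234 in the largest core piece of Tumor-899.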
